A study of Mus musculus with 56 samples.

Results

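The nuclear genes of the mitochondrial respiratory chain and of ATP synthase were examined in 2 progenitor populations of mouse bone marrow. They were chosen by symbol, as all genes beginning with Ndufa, Ndufb, Ndufc, Ndufs, Ndufv, Sdha to Sdhd, Uqcr, Cox4 to Cox8 or Atp5, with pseudogenes left out. This gave 97 of the 24424 genes in the deposited table, and 90 of these were among the 12133 genes with a mean log2 value of at least 4, which were tested. Of the 90, 7 were nuclear core subunits of complex I, 28 accessory subunits of complex I, 4 subunits of complex II, 8 of complex III, 14 of complex IV and 17 of complex V. The other 12 were assembly factors that share a prefix (Ndufaf and Sdhaf).

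RNA was sequenced from granulocyte-macrophage progenitors (GMP) and multipotent progenitors (MPP) of C57BL/6 mice. The mutant mice, named Tet2-/-Flt3ITD in the labels and T2F3 here, combined loss of Tet2, an enzyme that oxidises methylated cytosine, with an internal tandem duplication (ITD) of the cytokine receptor gene Flt3. The groups were 3 T2F3 GMP, 5 wild-type (WT) GMP, 3 T2F3 MPP and 4 WT MPP libraries. Both were sorted as lineage-negative cells carrying c-Kit, GMP by CD34 and CD16/32 in the absence of Sca-1, and MPP by Sca-1 and CD48 in the absence of CD150. The labels do not say whether the libraries of a group came from separate animals, so p-values measure only the spread between these libraries. Values are regularised log2 expression values, in which the differences of low genes are shrunk. They are not per gene length and hold no counts, so the read depth is unknown and levels are compared within a gene only.

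Complexes I and II pass electrons from NADH and succinate to ubiquinone, complex III passes them to cytochrome c, and complex IV hands them to oxygen. Complexes I, III and IV pump protons across the inner mitochondrial membrane, and complex V, the ATP synthase, makes ATP from the return flow. The core subunits hold the redox centres or the catalytic sites, and many of the remaining subunits are small proteins that stabilise the complexes. Blood stem cells are known to rely more on glycolysis, and the use of oxidative phosphorylation is known to increase as they differentiate. The subunits encoded in the mitochondrial genome were not analysed here.

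Tet2 read at 9.88 to 10.30 in T2F3 GMP, 9.87 to 10.19 in WT GMP, 9.67 to 9.90 in T2F3 MPP and 9.71 to 9.89 in WT MPP, so the value of the whole gene did not separate the genotypes and does not check the deletion. Within each genotype Ly6a differed between the populations, while Cd48 did so in T2F3 only. Ly6a, which encodes Sca-1, ranged from 7.45 to 7.69 in T2F3 GMP and 6.97 to 7.33 in WT GMP, against 8.18 to 8.52 in T2F3 MPP and 7.53 to 7.90 in WT MPP, so it was not absent in GMP, and T2F3 GMP and WT MPP overlapped. Slamf1, which encodes CD150, was low in MPP, at 2.08 to 2.13 in T2F3 and 2.76 to 3.10 in WT. Cd48 overlapped in WT, at 9.86 to 10.61 in GMP and 9.76 to 10.09 in MPP. In T2F3 it read at 10.52 to 11.15 in GMP and 11.39 to 11.60 in MPP, so it also separated the MPP genotypes. Kit, which encodes c-Kit, did so too, at 11.27 to 11.45 in T2F3 MPP and 12.12 to 12.41 in WT MPP. Cd34 and Flt3 overlapped between the MPP genotypes. Libraries of 1 group correlated with r between 0.973 and 0.995 across genes. WT GMP 1 and T2F3 GMP 2 stood above the other GMP libraries in respiratory chain and ribosomal protein genes, and T2F3 GMP 3 stood low, as described with the GMP results.

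Promoter windows of 250 bases before to 50 bases after the gene start (RefSeq, GRCm38.p6) were matched for 80 of the 97 genes. They were searched on both strands for motifs of factors known to act on nuclear genes of mitochondrial proteins. GCATGCGC, a core motif of nuclear respiratory factor 1 (NRF1), stood in 12 of the 80 (15%), against 6.16% of tested genes with a window and 2.71% of all windows in the table. In 7 of the 80 (8.75%) it matched on both strands with an overlap, forming a palindrome, against 2.43% of tested genes with a window and 0.971% of all windows. AAGATGGCG, a motif of YY1, stood in 8 of the 80 (10%), against 3.71% of tested genes with a window and 1.4% of all windows. TCAAGGTCA, a motif of ESRRA, stood in 2 of the 80 (2.5%), against 0.319% of tested genes. The ETS motif CCGGAAGT, read by GABPA, stood in 5 of the 80 (6.25%), against 9.43% of tested genes, a small count. GGGCGG, the SP1 motif, stood in 39 of the 80 (48.8%), against 67.6% of tested genes. The respiratory chain genes had 1.06 windows each on average and tested genes 1.27, and a gene with more windows has more chances of a match. Of 69 mitochondrial ribosomal protein genes with a window, 11.6% held the NRF1 core and 11.6% the YY1 motif. The 7 genes with the palindrome were Ndufaf4, Ndufaf5, Ndufa11, Uqcrc1, Cox6a1, Atp5g2 and Atp5k. The stretches around it are shown for the 4 subunit genes that hold it before the gene start, since these subunits are among the genes whose values follow. The first 3 stretches hold the 100 bases before the gene start and that of Cox6a1 begins 200 bases before it, each 5′ to 3′ on the gene's strand with the bases matched on either strand in capitals. A match is a description of letters and not a measured binding site.
Ndufa11 (chr17:56717662-56717761, plus strand): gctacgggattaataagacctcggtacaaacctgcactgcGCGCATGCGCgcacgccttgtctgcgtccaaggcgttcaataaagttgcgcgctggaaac
Atp5g2 (chr15:102671048-102671147, minus strand): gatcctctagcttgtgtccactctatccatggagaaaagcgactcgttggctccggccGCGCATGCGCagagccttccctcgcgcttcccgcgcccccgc
Atp5k (chr5:108434400-108434499, minus strand): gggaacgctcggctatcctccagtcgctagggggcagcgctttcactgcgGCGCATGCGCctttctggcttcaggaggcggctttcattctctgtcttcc
Cox6a1 (chr5:115349059-115349158, minus strand): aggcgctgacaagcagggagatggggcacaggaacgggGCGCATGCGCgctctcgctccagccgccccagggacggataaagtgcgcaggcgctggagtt

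In MPP, respiratory chain genes were higher in T2F3 than in WT. Of the 90 tested, 54 passed the threshold higher and 0 lower (60%; limma, Benjamini-Hochberg adjusted p under 0.05 over all tested genes), where 40.3% of all tested genes passed, 20.7% higher and 19.6% lower. The difference was above 0 for 87 of the 90, with a median of 0.58 on the log2 scale against -0.02 over all tested genes, and a range of -0.25 to 2.37. All T2F3 MPP libraries lay above all WT MPP libraries for 80 of the 90, where 28.1% of all tested genes did so. Other genes moved with them: 62 of 79 cytosolic ribosomal protein genes rose (median 0.72), as did 32 of 78 mitochondrial ribosomal protein genes (median 0.41), and 27 of 38 proteasome genes (median 0.53). Of 568 other genes spanning under 3 kb, 176 rose and 48 fell (median 0.20). Among the respiratory chain genes, 11 of 15 spanning under 3 kb rose (median 0.58), and 43 of 75 longer ones (median 0.58). The span is that of the gene in the genome, introns included, so this split does not sort the genes by length of mRNA. In bulk samples, fewer cells of a type and less RNA per cell cannot be told apart.

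**Figure D1:**
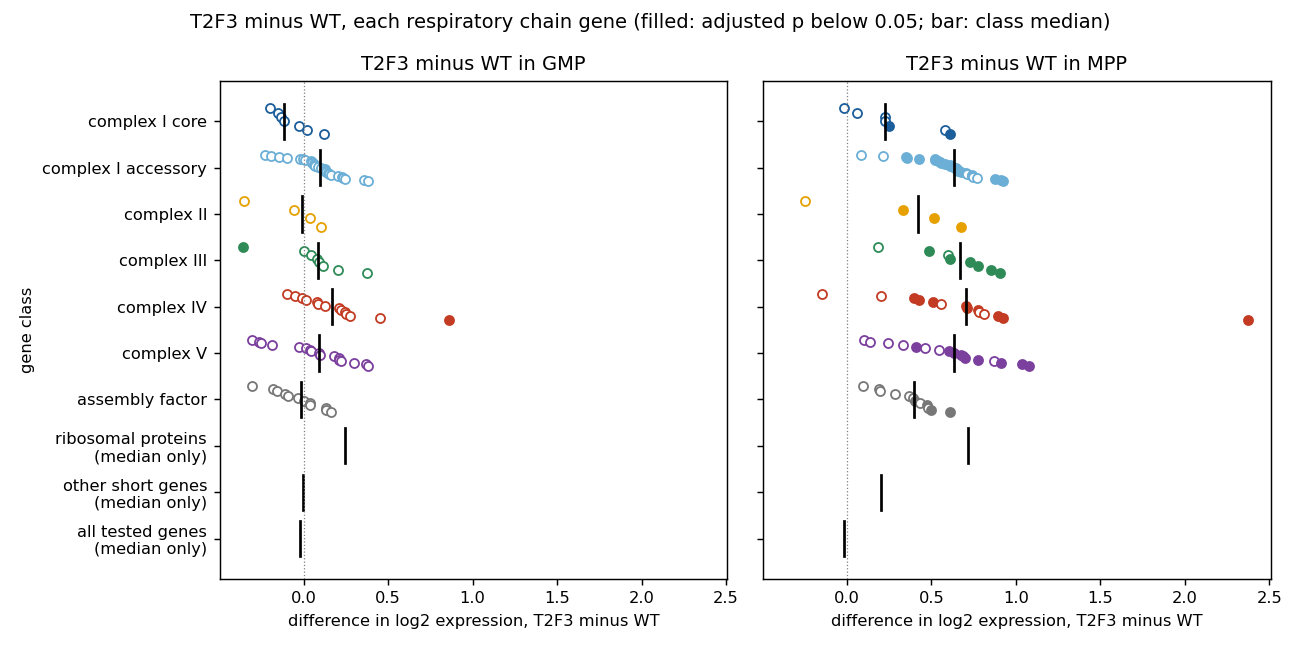
Differences in log2 expression, T2F3 minus WT, for each tested respiratory chain gene in GMP (left) and MPP (right), by class. Filled points passed an adjusted p of 0.05 and black bars are medians; in MPP 54 points are filled, all above 0, and in GMP 2, one on each side.

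Complex I takes electrons from NADH. Of its accessory subunits 20 of 28 rose in T2F3 MPP (median 0.64), and of its nuclear core subunits 2 of 7 (median 0.23). The accessory subunit gene Ndufa7 read at 9.89, 9.92 and 9.79 in T2F3 MPP, against 9.0, 8.88, 9.01 and 8.88 in WT MPP, with no overlap. The 1.90-fold difference (0.92 ± 0.33 on the log2 scale, SE, limma adjusted p = 0.0350) passed the threshold. Ndufb8, an accessory subunit of the membrane arm, was also higher (0.91 ± 0.26, SE, limma adjusted p = 0.0126), and so was Ndufa11, at 8.96, 9.15 and 9.12 in T2F3 MPP against 8.39, 8.35, 8.40 and 8.45 in WT MPP (0.68 ± 0.25, SE, limma adjusted p = 0.0427). Among the core genes, Ndufs8, for an iron-sulphur subunit on the path to ubiquinone, was higher in T2F3 MPP (0.61 ± 0.18, SE, limma adjusted p = 0.0171). Ndufv2, an iron-sulphur subunit of the NADH-oxidising module, differed by 0.58 ± 0.23 (SE) and missed the threshold (limma adjusted p = 0.0521). Ndufs1, the largest core subunit, read at 9.41, 9.59 and 9.68 in T2F3 MPP and 9.58, 9.53, 9.67 and 9.54 in WT MPP, which overlap (-0.02 ± 0.09, SE, limma adjusted p = 0.875). The accessory gene Ndufa10 (0.09 ± 0.11, SE, limma adjusted p = 0.542) was also near 0. Ndufs5, an accessory subunit, was listed at 0 in every library and was not tested, while its pseudogene Ndufs5-ps, which the symbol rule leaves out, read at 7.68 to 9.04.

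Complex II is the succinate dehydrogenase of the tricarboxylic acid cycle, and its subunits are all encoded in the nucleus. Of its 4 genes 3 rose in T2F3 MPP. Sdhd, a membrane anchor, read at 10.74, 10.85 and 10.87 in T2F3 MPP, against 10.14, 10.09, 10.23 and 10.13 in WT MPP, with no overlap (0.68 ± 0.19, SE, limma adjusted p = 0.0127). Sdhb, the iron-sulphur subunit, was higher by 0.52 ± 0.12 (SE, limma adjusted p = 0.004), and Sdhc, the other anchor, by 0.33 ± 0.10 (SE, limma adjusted p = 0.0146). Sdha, the flavoprotein that oxidises succinate, ran the other way, at 10.78, 10.98 and 11.08 in T2F3 MPP against 11.25, 11.19, 11.09 and 11.23 in WT MPP. It was the only respiratory chain gene with every T2F3 MPP library below every WT MPP library, where 26% of all tested genes were, but its difference of -0.25 ± 0.16 (SE) missed the threshold (limma adjusted p = 0.229). It passed as lower in T2F3 MPP when the MPP groups were fitted alone (limma adjusted p = 0.0266) and when WT GMP 1 and T2F3 GMP 2, the GMP libraries with the lowest Sdha in their groups, were left out (limma adjusted p = 0.0196). Sdha missed the threshold in every other alternative fit. With the median level of ribosomal protein genes as a covariate, its difference turned to 0.19 (limma adjusted p = 0.165).

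Complex III, the cytochrome bc1 complex, had 6 of 8 genes higher in T2F3 MPP (median 0.67). Uqcrh, the hinge subunit next to cytochrome c1, read at 10.97, 10.95 and 10.94 in T2F3 MPP, against 9.98, 10.03, 10.16 and 9.99 in WT MPP, with no overlap (0.91 ± 0.29, SE, limma adjusted p = 0.0235). Uqcr10, a small subunit, was higher by 0.85 ± 0.31 (SE, limma adjusted p = 0.0361), and Uqcrfs1, the Rieske iron-sulphur protein, by 0.49 ± 0.15 (SE, limma adjusted p = 0.0175). Uqcrc1, a large core protein, had the smallest difference of the complex, at 10.79, 10.97 and 11.05 in T2F3 MPP against 10.78, 10.75, 10.73 and 10.75 in WT MPP (0.19 ± 0.09, SE, limma adjusted p = 0.102).

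Complex IV, cytochrome c oxidase, had 9 of 14 genes higher in T2F3 MPP (median 0.71). Subunit 4 is made from Cox4i1, the form of most tissues, or Cox4i2, known from lung and from induction by low oxygen. Cox4i2 read at 5.92, 5.94 and 6.24 in T2F3 MPP, against 3.58, 3.33, 3.62 and 4.11 in WT MPP. The groups were far apart, and its 5.18-fold difference was the largest of all respiratory chain genes (2.37 ± 0.20 on the log2 scale, SE, limma adjusted p = 3.01e-07). Cox4i1 read at 11.85, 12.00 and 12.02 in T2F3 MPP, against 11.06, 11.02, 11.13 and 11.06 in WT MPP, and was 1.86-fold higher (0.89 ± 0.25, SE, limma adjusted p = 0.0110). Cox4i2 is a low gene (mean of 4.41 over the 15 libraries). Most of its WT libraries read under the minimum mean of 4, so it entered the test through its T2F3 libraries, where it is high. That limit applies to each comparison in which Cox4i2 is named. It passed as higher in MPP in all 26 alternative fits that tested it, with differences of 1.82 to 2.52.

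Other subunits of the complex also have tissue forms. The muscle forms Cox6a2 (mean of 2.69 over the 15 libraries), Cox7a1 (3.93) and Cox8b (1.3) lay under the minimum mean, as did the testis forms Cox8c (-3.81) and Cox7b2, listed at 0. Their broad counterparts rose in T2F3 MPP for Cox6a1 (0.40 ± 0.10, SE, limma adjusted p = 0.00673) and Cox8a (0.43 ± 0.11, SE, limma adjusted p = 0.00758). Cox7a2 differed by 0.78 ± 0.33 (SE) and missed the threshold (limma adjusted p = 0.0652). Cox6b1, at the cytochrome c side, rose (0.77 ± 0.25, SE, limma adjusted p = 0.0236), while its testis paralogue Cox6b2 read at 7.80, 7.54 and 7.44 in T2F3 MPP and 7.75, 7.75, 7.80 and 7.65 in WT MPP, which overlap (-0.15 ± 0.15, SE, limma adjusted p = 0.436). Cox7a2l, a factor that joins complexes III and IV in supercomplexes, read at 11.52, 11.53 and 11.55 in T2F3 MPP against 10.82, 10.82, 10.82 and 10.84 in WT MPP (0.71 ± 0.19, SE, limma adjusted p = 0.00886). Cox7b, a small subunit, rose by 0.92 ± 0.33 (SE, limma adjusted p = 0.0372). Ndufa4, named for complex I but found with complex IV, read at 10.43, 10.50 and 10.51 in T2F3 MPP and 10.27, 10.16, 10.41 and 10.28 in WT MPP (0.20 ± 0.35, SE, limma adjusted p = 0.660), and Ndufa4l2, its hypoxia-inducible paralogue, was not tested at a mean of 0.87.

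Complex V had 10 of 17 genes higher in T2F3 MPP (median 0.63). Atp5j2, subunit f of the membrane part, read at 10.03, 10.17 and 10.18 in T2F3 MPP, against 8.93, 8.98, 9.10 and 9.21 in WT MPP, with no overlap, a 2.11-fold difference (1.08 ± 0.24, SE, limma adjusted p = 0.00287). Atp5e, the epsilon subunit of the rotor stalk, was 2.05-fold higher (1.04 ± 0.38, SE, limma adjusted p = 0.0416). The genes of the catalytic head, Atp5a1 (alpha; 0.10 ± 0.14, SE, limma adjusted p = 0.562) and Atp5b (beta; 0.24 ± 0.13, SE, limma adjusted p = 0.148), did not pass. The c ring of the rotor is built from 1 mature peptide that Atp5g1, Atp5g2 and Atp5g3 all encode. Atp5g3 (0.60 ± 0.21, SE, limma adjusted p = 0.0351) and Atp5g2 (0.41 ± 0.13, SE, limma adjusted p = 0.0206) rose, and Atp5g1 missed the threshold (0.33 ± 0.14, SE, limma adjusted p = 0.0682). Atp5k, subunit e, read at 9.27, 9.34 and 9.45 in T2F3 MPP against 8.66, 8.60, 8.77 and 8.59 in WT MPP (0.70 ± 0.23, SE, limma adjusted p = 0.0259).

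**Figure D2:**
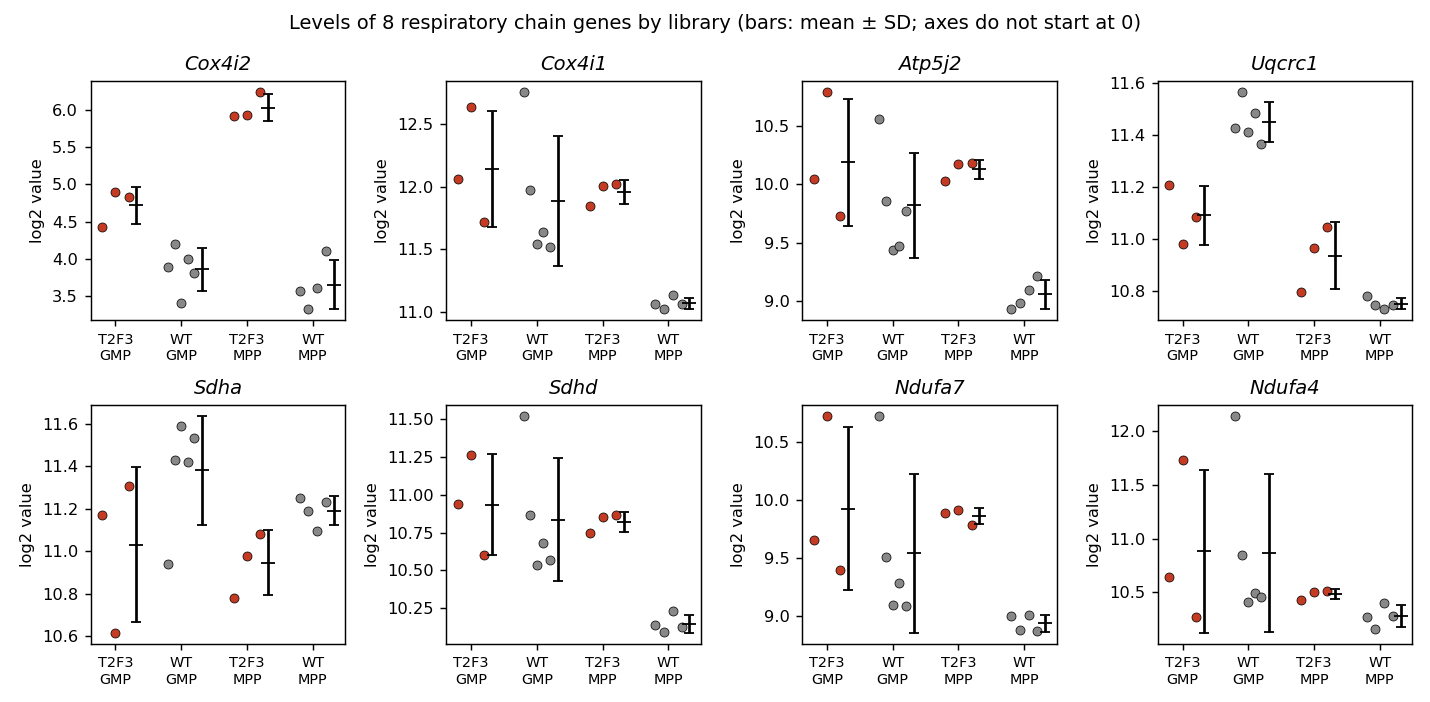
Log2 values of 8 genes in each library, with T2F3 points in red and WT points in grey; bars are the mean ± SD of 3 T2F3 GMP, 5 WT GMP, 3 T2F3 MPP and 4 WT MPP libraries. Cox4i2 is higher in T2F3 than in WT in both populations. Sdha is lower in every T2F3 MPP library than in every WT MPP library, and Uqcrc1 is lower in every T2F3 GMP library than in every WT GMP library.

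Of the assembly factors that share a prefix, 4 of 12 rose (median 0.40). They included Ndufaf6, which acts in complex I assembly (0.61 ± 0.22, SE, limma adjusted p = 0.0383), and Sdhaf1, which inserts iron-sulphur clusters into Sdhb (0.49 ± 0.18, SE, limma adjusted p = 0.0399), while Ndufaf3 did not pass (0.09 ± 0.13, SE, limma adjusted p = 0.565). Of 38 tested assembly factors with other names, 8 rose and 0 fell (21.1%, median 0.17), near the 20.7% of all tested genes that were higher. Of the electron carriers and subunits outside the symbol rule, 3 of 4 rose: Cycs, which encodes cytochrome c (0.53 ± 0.19, SE, limma adjusted p = 0.0391), Cyc1 of complex III (0.28 ± 0.11, SE, limma adjusted p = 0.0476) and Coq10b, a coenzyme Q binding protein (0.39 ± 0.14, SE, limma adjusted p = 0.0392). The tricarboxylic acid cycle, which feeds the chain, had 3 of 18 genes higher and 0 lower (16.7%, median 0.13), a smaller share than that of all tested genes. Mitochondrial import had 7 of 19 higher and 0 lower (36.8%, median 0.44). Among 18 tested regulators of mitochondrial gene expression and biogenesis, 3 rose and 4 fell (38.9%, median -0.08), near the 40.3% of all tested genes that passed. Those higher were Tfam, which packages and transcribes mitochondrial DNA (0.36 ± 0.14, SE, limma adjusted p = 0.0477), Tfb1m, a mitochondrial ribosomal RNA methyltransferase (0.53 ± 0.18, SE, limma adjusted p = 0.0269) and Mycn (2.00 ± 0.15, SE, limma adjusted p = 1.21e-07), a MYC family transcription factor. Those lower were the coactivators Ppargc1b (-0.54 ± 0.19, SE, limma adjusted p = 0.0310) and Pprc1 (-0.51 ± 0.16, SE, limma adjusted p = 0.0185), the mitochondrial DNA polymerase gene Polg (-0.40 ± 0.10, SE, limma adjusted p = 0.00638) and Myc (-0.75 ± 0.16, SE, limma adjusted p = 0.00242). The gene of NRF1 itself missed the threshold (-0.15 ± 0.07, SE, limma adjusted p = 0.0796).

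Most sums of markers of other blood cells also differed between the MPP groups. The summed level of 5 dendritic cell markers ranged from 13.44 to 14.31 in T2F3 MPP and 10.44 to 11.39 in WT MPP (log2 of the sum). The sum of 6 erythroid markers, of which Hbb-bt was listed at 0 throughout, was 6.37 to 6.67 in T2F3 MPP and 7.82 to 8.24 in WT MPP, that of 5 B cell markers 8.22 to 8.50 in T2F3 MPP and 8.76 to 9.23 in WT MPP, and that of 3 T cell markers 3.72 to 3.99 in T2F3 MPP and 4.36 to 4.63 in WT MPP. The sum of 5 mast cell and basophil markers was 9.35 to 9.53 in T2F3 MPP and 9.82 to 10.28 in WT MPP. Single markers did not all go with their sums. Mcpt8, of the mast cell and basophil markers, was higher in T2F3 MPP (8.63 to 8.81) than in WT MPP (7.96 to 8.37). The dendritic marker Siglech (4.09 to 5.62 in T2F3 MPP, 5.41 to 5.57 in WT MPP) and the B cell marker Cd79b (7.95 to 8.25 and 8.05 to 8.24) overlapped. The erythroid marker Hba-a1 read at -3.02 in both groups, and all 3 T cell markers lay under the minimum mean of 4. The sum of 5 mature neutrophil markers overlapped, at 13.43 to 14.56 in T2F3 MPP and 12.98 to 13.78 in WT MPP. The part of these markers in the result was not tested. The number of calls depended on single MPP libraries, and all calls were higher in these fits. Without T2F3 MPP 2, 19 passed, where 23.6% of all tested genes did (12% higher), and without T2F3 MPP 3, 16 passed, where 23.8% did (12.1% higher). There were 33 without WT MPP 1, 31 without WT MPP 3 and 33 without WT MPP 5, where 31.5%, 31.7% and 32.8% of all tested genes passed, 16% higher without WT MPP 1 or 3 and 16.4% without WT MPP 5. When the MPP groups were fitted alone, without the spread of the GMP libraries, 78 were higher and 1 lower. There 54% of all tested genes passed, 28.1% higher and 25.9% lower. Centring each library on other short genes left 19 higher and 1 lower (median 0.33). In that fit the median of all tested genes was -0.27, and 45.2% of them passed, 8.15% higher and 37.1% lower. With the median level of ribosomal protein genes entered as a covariate, which itself lay higher in all T2F3 MPP libraries than in all WT MPP libraries, 6 were higher and 13 lower (median -0.01), where 28.3% of all tested genes passed, 14.5% higher and 13.8% lower. Those higher included Atp5b, Atp5j2, Cox4i2, Cox8a and Ndufa13. Inside the groups, 61 of the 90 genes followed the ribosomal protein level with r over 0.9, and 13 had r below 0.5. Of genes that did not pass in MPP, r was -0.91 for Sdha, -0.67 for Ndufa10, -0.61 for Atp5a1, -0.51 for Atp5b and -0.50 for Ndufs1. It was 0.99 for Ndufa4 and Cox7a2, which also missed, and 0.28 for Cox8a and Sdhc, which passed. The part of this in the differences between classes was not tested.

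**Figure D3:**
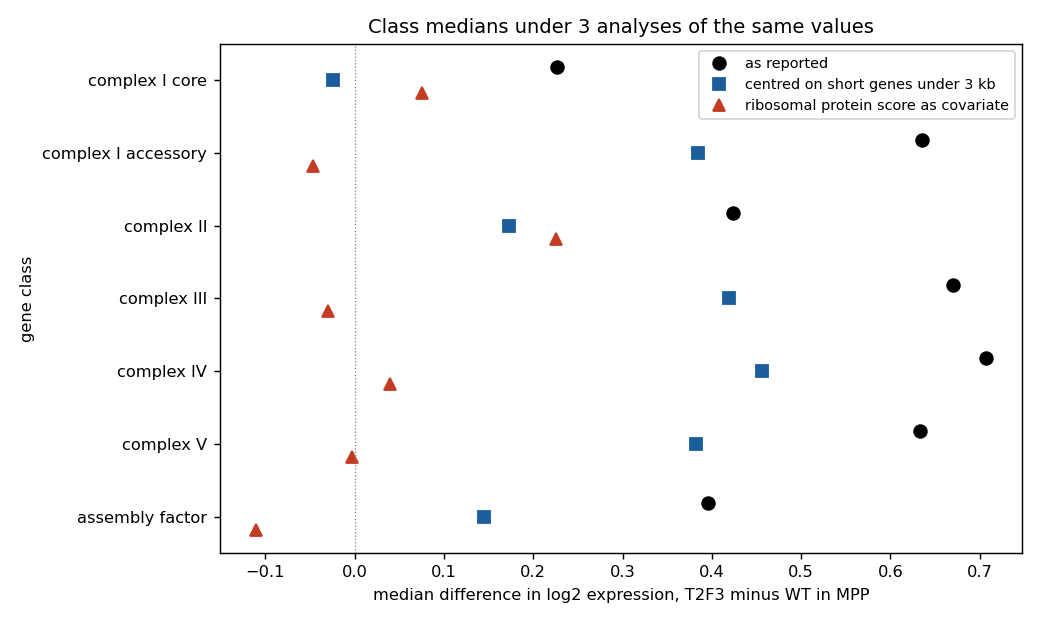
Median difference of each class in MPP, T2F3 minus WT in log2 units, as reported (circles), with each library centred on other short genes (squares) and with ribosomal protein level as a covariate (triangles). The circles lie between 0.23 and 0.71, and the triangles lie nearer to 0 than the circles in every class.

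In GMP, 1 of the 90 genes was higher in T2F3, Cox4i2, and 1 lower, Uqcrc1 (2.22%; limma, adjusted p under 0.05), where 15.3% of all tested genes passed, 9.25% higher and 6.04% lower. At an unadjusted p under 0.05, 7 genes passed (the share of all tested genes at that threshold was not counted). The median difference was 0.06, against -0.02 over all tested genes. Cox4i2 read at 4.43, 4.89 and 4.83 in T2F3 GMP, against 3.89, 4.20, 3.41, 4.0 and 3.81 in WT GMP. The groups did not overlap, and T2F3 was 1.81-fold higher (0.86 ± 0.19, SE, limma adjusted p = 0.00569). Uqcrc1 read at 11.21, 10.98 and 11.08 in T2F3 GMP against 11.43, 11.57, 11.41, 11.49 and 11.37 in WT GMP, also with no overlap (-0.36 ± 0.08, SE, limma adjusted p = 0.00839). Its call was lost when the GMP groups were fitted alone and when libraries were centred on short genes, where the highest adjusted p was 0.0805. The GMP groups lay apart for 1 gene higher in T2F3 and 2 lower, where 9.52% and 7.49% of all tested genes did so. Beside Cox4i2 and Uqcrc1 the gene that lay apart was Atp5d, the delta subunit of the ATP synthase stalk, whose difference missed the threshold (-0.25 ± 0.10, SE, limma adjusted p = 0.108). By class the largest differences that missed the threshold were Cox7a2l (0.45 ± 0.18, SE), Uqcrh (0.37 ± 0.28, SE), Ndufa7 (0.38 ± 0.31, SE), Atp5e (0.38 ± 0.37, SE), Sdha (-0.35 ± 0.15, SE), Ndufaf4 (-0.31 ± 0.16, SE) and Ndufv1, the NADH-binding flavoprotein (-0.20 ± 0.11, SE), with limma adjusted p between 0.105 and 0.524.

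The GMP libraries of both genotypes were widely spread. The median deviation of the 90 genes from their means over the 15 libraries was 0.17, 0.66 and -0.11 in T2F3 GMP and 0.83, 0.24, -0.11, -0.05 and -0.10 in WT GMP, against 0.01, 0.13 and 0.15 in T2F3 MPP and -0.45, -0.53, -0.44 and -0.47 in WT MPP. T2F3 GMP 2 held the highest value of its group for 76 of the 90 genes, WT GMP 1 likewise for 76, and T2F3 GMP 3 the lowest for 79. Ribosomal protein genes did the same, with the highest values in T2F3 GMP 2 for 73 of 79, the highest in WT GMP 1 for 75 and the lowest in T2F3 GMP 3 for 76. Sdha ran against this, being lowest in T2F3 GMP 2 (10.61) and WT GMP 1 (10.94) of their groups. In GMP, dendritic cell markers summed to 12.91 to 13.30 in T2F3 and 9.81 to 10.15 in WT, and mast cell and basophil markers to 9.56 to 10.57 in T2F3 and 11.83 to 12.76 in WT. Siglech, a dendritic marker, overlapped, at 3.65 to 3.77 in T2F3 GMP and 3.46 to 3.99 in WT GMP. The sum of 5 mature neutrophil markers was 16.26 to 18.56 in T2F3 GMP and 15.30 to 17.32 in WT GMP. The median deviation of these markers was highest in T2F3 GMP 2 (3.28) and WT GMP 1 (2.14) of their groups, and the part of these markers in the result was not tested. Without WT GMP 1, 11 genes were higher and 2 lower in T2F3 GMP (median 0.24), a smaller share than the 31% of all tested genes that passed in that fit, 15.8% higher and 15.2% lower. Without T2F3 GMP 2 the median was -0.13. With ribosomal protein level as a covariate 2 were higher, Cox4i2 and Cox7a2l, and 28 lower, where 22.8% of all tested genes passed, 12% higher and 10.7% lower.

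**Figure D4:**
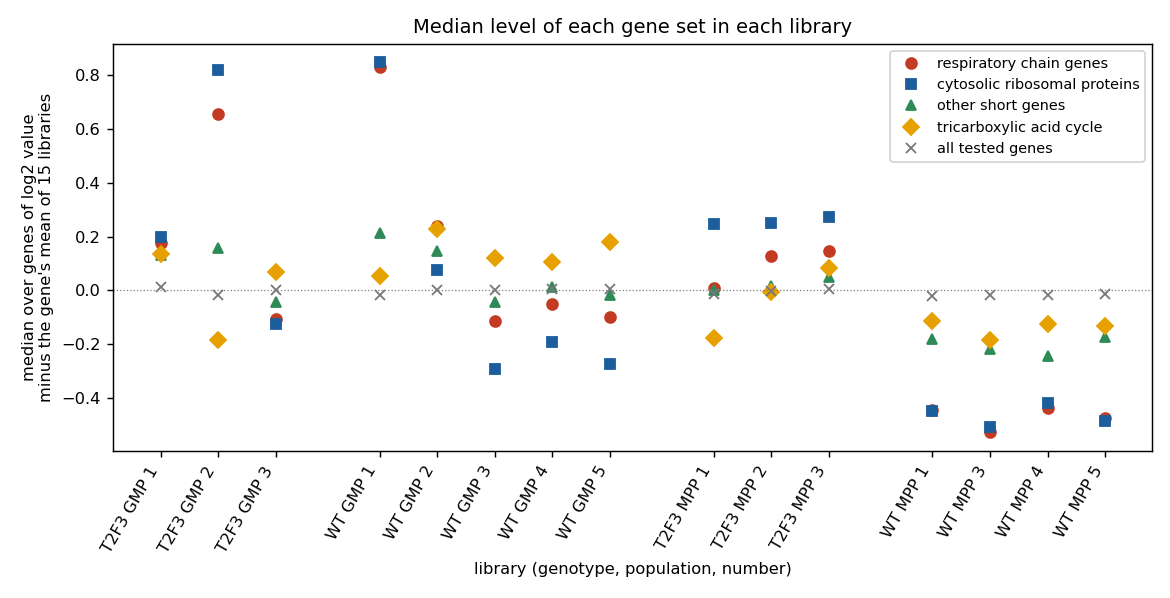
Median log2 deviation of 5 gene sets in each of the 15 libraries, relative to each gene's mean over all libraries. Respiratory chain genes (circles) and cytosolic ribosomal proteins (squares) are highest in WT GMP 1 and T2F3 GMP 2 and lowest in the 4 WT MPP libraries, while tricarboxylic acid cycle genes (diamonds) stay between -0.19 and 0.23.

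The genotype effect was compared between the populations, as the effect in GMP minus that in MPP. It was lower in GMP for 89 of the 90 genes, with a median of -0.49 against -0.01 over all tested genes, but only Cox4i2 and Uqcrc1 passed (2.22%), both lower, where 2.26% of all tested genes did, 1.38% higher and 0.882% lower. Other sets shifted the same way. The difference was above 0 for 0 of 79 cytosolic ribosomal protein genes (median -0.45) and 0 of 78 mitochondrial ones (median -0.44). It was above 0 for 0 of 38 proteasome genes (median -0.48) and 135 of 568 other short genes (median -0.22). The effect on Cox4i2 was 0.86 in GMP and 2.37 in MPP, a difference of -1.51 ± 0.28 (SE, limma adjusted p = 0.0101), and it passed in all 26 alternative fits that tested it. The effect on Uqcrc1 was -0.36 in GMP and 0.19 in MPP, a difference of -0.54 ± 0.12 (SE, limma adjusted p = 0.0314), which passed in 6 of 15 fits that left out 1 library and reached an adjusted p of 0.115. The count was 5 without T2F3 MPP 1, where 4.83% of all tested genes passed. It was 1 without T2F3 GMP 2 or 3, WT GMP 2 or 4, T2F3 MPP 2 or 3, or WT MPP 1, 3 or 4. In those fits 0.651% to 1.62% of all tested genes passed. At an unadjusted p under 0.05, 29 genes passed. The share of all tested genes at that threshold was not counted, so this number has no background beside it. Without WT GMP 1 and T2F3 GMP 2, 54 genes passed, all with the lower effect in GMP, where 9.92% of all tested genes passed, 3.29% with a higher and 6.63% with a lower effect. These libraries were chosen because they stand high in the same genes, so that count is a description.

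The step between the populations was taken in each genotype, as GMP minus MPP. In WT, respiratory chain genes were higher in GMP than in MPP, with 68 of 90 higher and 0 lower (75.6%; limma, adjusted p under 0.05), where 48.6% of all tested genes passed, 25.4% higher and 23.2% lower. The median was 0.62, against 0.03 over all tested genes, and all WT GMP libraries lay above all WT MPP libraries for 76 of the 90 and below them for 0, where 22.6% and 20.4% of all tested genes did so. Complex V had 16 of 17 genes higher (median 0.76), complex IV 10 of 14 (median 0.71), complex III 6 of 8 (median 0.71), complex II 3 of 4 (median 0.39), and complex I 24 of 28 accessory genes (median 0.68) and 6 of 7 core genes (median 0.39). Of the assembly factors 3 of 12 were higher, a share near that of all tested genes. The tricarboxylic acid cycle had 13 of 18 genes higher (median 0.32), cytosolic ribosomal proteins 32 of 79 (median 0.49) and other short genes 277 higher and 75 lower of 568 (median 0.30). Other sets had shares near that of the respiratory chain genes. Mitochondrial ribosomal proteins had 59 of 78 higher (75.6%, median 0.50), the proteasome 30 of 38 (78.9%, median 0.46) and mitochondrial import 14 of 19 (73.7%, median 0.44).

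Uqcrq, a small subunit of complex III, read between 9.55 and 10.95 in WT GMP, against 8.78 to 8.94 in WT MPP, with no overlap (1.09 ± 0.24, SE, limma adjusted p = 0.00136). Ndufb3, a complex I accessory subunit, was higher in WT GMP by 1.02 ± 0.21 (SE, limma adjusted p = 0.000732). Of the genes with the smallest genotype difference of their class in MPP, Uqcrc1 (0.70 ± 0.08, SE, limma adjusted p = 1.87e-06), Atp5a1 (0.41 ± 0.12, SE, limma adjusted p = 0.00979) and Ndufa10 (0.39 ± 0.10, SE, limma adjusted p = 0.00313) were higher in WT GMP, as was Ndufaf3 (0.53 ± 0.11, SE, limma adjusted p = 0.000851). Ndufs1 (0.15 ± 0.08, SE, limma adjusted p = 0.108) and Sdha (0.19 ± 0.14, SE, limma adjusted p = 0.279) missed the threshold. Cox4i2 differed by 0.20 ± 0.18 (SE, limma adjusted p = 0.355), Cox7a2l by 0.15 ± 0.17 (SE, limma adjusted p = 0.473), Ndufaf1 by 0.10 ± 0.08 (SE, limma adjusted p = 0.315) and Cox6b2 by -0.08 ± 0.13 (SE, limma adjusted p = 0.654). Centring on short genes left 37 higher and 1 lower, where 49.8% of all tested genes passed, 8.8% higher and 41% lower. With ribosomal protein level as a covariate 53 were higher and 3 lower, where 58% of all tested genes passed, 31.3% higher and 26.7% lower.

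In T2F3, 0 of the 90 genes were higher in GMP than in MPP and 1 was lower, Cox4i2 (limma, adjusted p under 0.05), where 22.2% of all tested genes passed, 10.5% higher and 11.7% lower. At an unadjusted p under 0.05, 3 genes passed (the share of all tested genes was not counted), and the median was 0.13. Cox4i2 fell to 4.43, 4.89 and 4.83 in T2F3 GMP, against 5.92, 5.94 and 6.24 in T2F3 MPP, with no overlap (-1.31 ± 0.21, SE, limma adjusted p = 0.000233). The largest positive steps, in Ndufb3 (0.53 ± 0.25, SE, limma adjusted p = 0.164) and Cox7a2 (0.44 ± 0.35, SE, limma adjusted p = 0.433), and the next largest negative one, in Ndufaf4 (-0.22 ± 0.18, SE, limma adjusted p = 0.461), missed the threshold. Without T2F3 GMP 2 the median was -0.07. Without T2F3 GMP 3, 3 genes were higher and 1 lower, and without WT GMP 1, 2 were higher and 1 lower, where 20.5% and 26.2% of all tested genes passed. Without both WT GMP 1 and T2F3 GMP 2, 2 genes were higher, Ndufv1 and Sdha, and 5 lower, where 31.6% of all tested genes passed. With ribosomal protein level as a covariate 22 were higher and 1 lower, where 34.9% of all tested genes passed, 17.9% higher and 17.1% lower.

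**Figure D5:**
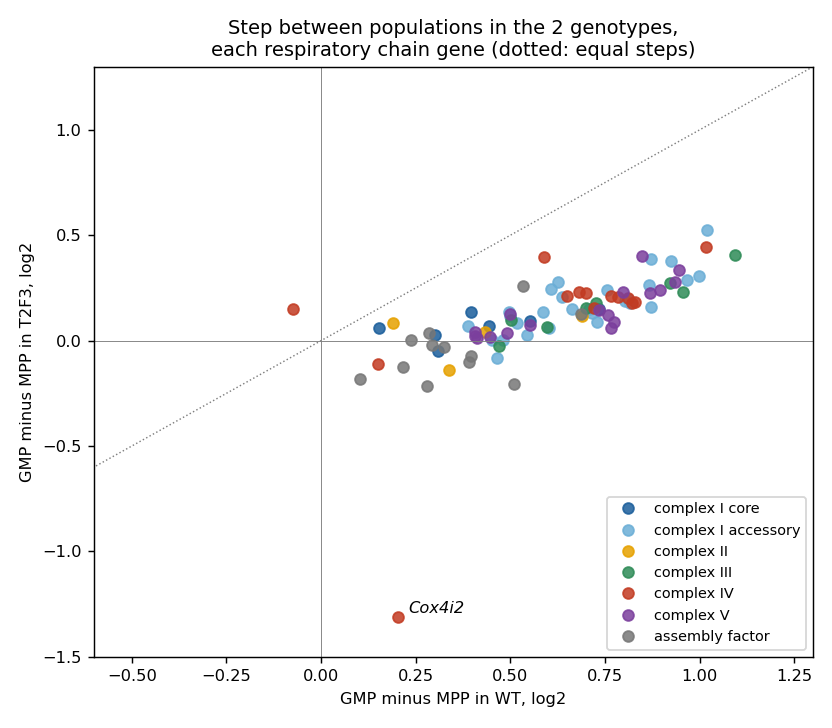
Step between the populations, GMP minus MPP in log2 units, in T2F3 (vertical axis) and in WT (horizontal axis) for each of the 90 genes, coloured by class. All points except that of Cox6b2 lie below the dotted line of equal steps, and Cox4i2 stands apart at -1.31 in T2F3 and 0.20 in WT.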

How the data were processed

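Sorted GMP and MPP were profiled by stranded mRNA sequencing, per the labels. The authors deposited 1 table of regularised log2 values for 24424 Entrez IDs in 15 libraries; STAR, HOMER, Bowtie, DESeq2 and the mm9 build are named in the submitters' processing notes, with no settings. Symbols for 24345 IDs, gene spans and promoters came from RefSeq tables of GRCm38.p6, a different build, so no coordinate was joined to the expression data. Another 41 samples were not analysed here.

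Each gene averaging at least 4 was tested in limma 3.58.1 under R 4.3.3, with lmFit and a trended, robust eBayes step, group means over all 15 libraries in 1 fit, and two-sided p-values were adjusted by Benjamini-Hochberg over 12133 genes. The fit was tested on simulated data. The members and lists were chosen with earlier results of these data known. Named genes were, per class, the 2 largest differences in MPP, the largest in GMP and the smallest in MPP, genes passing against their class or in the difference of effects, complex II, isoform families, and the 2 largest of each sign in each step; Ndufa13, Uqcrfs1, Atp5b, Atp5d, Atp5k and Ndufa11 were added after their values or promoters were seen, and a gene that the counts include is not reported here by name. Alternatives were other filters, scalings, blocks and covariates and each library left out. Python 3.11.15 with pandas 2.3.3, NumPy 2.4.6 and Matplotlib 3.10.9 was used for joins and figures.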

Additional observations from a re-analysis of the deposited data

Results flagged for a closer look

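Of 90 values examined in the WT groups (37 genes and 8 class medians in each), 12 had 1 library far from the others by Dixon's ratio of gap to range. Chance flags about 1 in 20 of independent values. These values share libraries and genes that move together, so their count cannot be set against that rate. In WT GMP the library was WT GMP 1 in all 8 cases: it was the highest for Atp5e (ratio 0.721), Cox7a2 (0.770), Cox7a2l (0.748), Cox7b (0.768), Ndufa4 (0.747), Ndufa7 (0.741) and Uqcrh (0.722), and the lowest for Sdha (0.739). In WT MPP, WT MPP 4 was the highest for Cox6b1 (0.908), Cox7a2 (0.868) and Cox7b (0.856), and WT MPP 3 the lowest in the median of complex IV (0.928). The genotype effect differed between the populations, as GMP minus MPP in limma's test, for Cox4i2 (-1.51) and Uqcrc1 (-0.54).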

How the results depend on the processing

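The numbers of genes called were 54 for T2F3 minus WT in MPP, 2 in GMP, 2 for the difference of these effects, 68 for the WT step (GMP minus MPP) and 1 for the T2F3 step. Over the fits that left out 1 library they ranged from 16 to 72, 2 to 13, 1 to 5, 55 to 74 and 1 to 4. In those fits 23.6% to 49.4%, 9.68% to 31%, 0.651% to 4.83%, 42.2% to 51.6% and 17.1% to 26.2% of all tested genes passed. With all libraries 40.3%, 15.3%, 2.26%, 48.6% and 22.2% did. Centring on short genes by span, chosen after seeing the data, gave 20, 1, 1 and 38 in the first 4. The shares of all tested genes that passed were 45.2%, 9.21%, 4.07% and 49.8%. The planned choice of short genes by protein length was not run. Ribosomal protein level as a covariate gave 19, 30 and 11 in the first 3 and 23 in the T2F3 step, and a median of -0.00597 in MPP, against 0.58. The shares of all tested genes that passed were 28.3%, 22.8%, 7.95% and 34.9%. A minimum mean of 6 gave 1 in GMP, 1 for the difference of effects and 0 in the T2F3 step (limma; 3 at an unadjusted p under 0.05 without that minimum), since Cox4i2 lies below it. With that minimum 13.3%, 1.36% and 19.3% of tested genes passed. Fitting the GMP groups alone gave 1, where 9.73% of all tested genes passed, and fitting the MPP groups alone gave 79, where 54% did. Leaving out WT GMP 1 and T2F3 GMP 2 gave 54 for the difference of effects and 7 in the T2F3 step, where 9.92% and 31.6% of all tested genes passed. The replicate number as a block gave 9 in MPP, where 22.5% of all tested genes passed (11.4% higher), and 1 for the difference of effects, where 1.99% passed. Libraries with the same number had deviations that correlated with r of 0.055 to 0.46 across populations of 1 genotype, and of -0.33, -0.12, -0.080, 0.12 and 0.52 across genotypes of 1 population. The block joins both kinds of pair. Not every pair was above 0.1, so the numbers are not shown to pair them. Genotype and number as 1 animal gave 54, 2, 2, 71 and 1, where 40%, 15.4%, 3.3%, 50.9% and 24.4% of all tested genes passed. Of the single-gene values under these alternatives, 1169 kept direction and call, 117 lost the call, 29 gained it and 31 changed sign. In MPP, the covariate turned the sign of Atp5e (-0.18), Atp5g1 (-0.028), Atp5g3 (-0.042), Cox6b1 (-0.0054), Cox7a2 (-0.25), Cox7b (-0.13), Ndufa4 (-0.91), Ndufa7 (-0.11), Ndufaf3 (-0.092), Ndufaf6 (-0.025), Ndufv2 (-0.12), Sdhaf1 (-0.010), Uqcr10 (-0.11), Uqcrh (-0.015), Ndufs1 (0.081) and Sdha (0.19). Short-gene centring turned Atp5a1 (-0.15), Ndufa10 (-0.17), Ndufa4 (-0.048), Ndufaf3 (-0.16) and Uqcrc1 (-0.065) in MPP and Ndufaf1 (-0.17) in the WT step. Quantile normalisation turned Atp5a1 (-0.27), and the replicate block Ndufa4 (-0.033) and Ndufs1 (0.018). Ndufs1 also turned without T2F3 MPP 1 (0.057) or WT MPP 4 (0.012), in a range of -0.077 to 0.057 over libraries left out. In GMP, Atp5e turned under the covariate (-0.069) and without T2F3 GMP 2 (-0.11, in a range up to 0.73), Ndufa7 turned without T2F3 GMP 2 (-0.015, in a range up to 0.68), and in the WT step Cox6b2 without WT GMP 5 (0.0093). The causes were not tested.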
